A study of Rattus norvegicus with 8 samples.

Results

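Enzymes that conjugate drugs, hormones and lipid products to glutathione, glucuronic acid or sulfate were read from 48 probe sets, which stand for 45 genes, on all 8 arrays of cirrhotic rat liver. They were chosen by name: every probe set with a single gene symbol among the cytosolic glutathione S-transferases (Gsta, Gstk, Gstm, Gsto, Gstp, Gstt, Gstz), the microsomal ones (Mgst), the UDP-glucuronosyltransferases (Ugt) and the sulfotransferases (Sult), out of 31042 probe sets tested and 14217 genes with 1 symbol. The 45 genes comprised 23 for glutathione, 8 for glucuronide and 14 for sulfate transfer, and 3 genes (Gstt2, Sult2b1 and Ugt2b) had 2 probe sets each.

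Conjugation makes lipophilic molecules soluble so that bile and urine can carry them away. Glutathione S-transferases join the tripeptide glutathione to electrophiles such as epoxides and lipid aldehydes, UDP-glucuronosyltransferases of the endoplasmic reticulum transfer glucuronic acid to bilirubin, steroids and drugs, and cytosolic sulfotransferases transfer sulfate to phenols, steroids and bile acids. Hepatocytes make most of these enzymes, and many of their genes are induced by phenobarbital, by oxidative stress through Nrf2, or, in the rat, follow the sex-dependent secretion of growth hormone.

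All 8 rats were male Wistar rats with cirrhosis from inhaled carbon tetrachloride, whose drinking water held 0.3 g/L phenobarbital, so that every liver here, controls included, came from an animal exposed to a toxin that the liver metabolises and to an inducer of conjugation genes. The 4 control rats are labelled as given vehicle, although the series description calls them non-treated, and the 4 others are labelled as given an antiangiogenic treatment (angiogenesis inhibitors), of which the sources used here name neither compound nor dose. One liver per array was hybridized to Affymetrix Rat2302 arrays, and levels are RMA (robust multi-array average) values on a log2 scale, so that a difference of 1 is 2-fold. Differences are treated minus vehicle, values after ± are SDs (n = 4 arrays per group), and intervals are 95%. Whether the arrays are separate animals rests on the labels alone, and p-values measure the spread between these arrays.

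Some arrays stood apart from their labels. Vehicle 4 and treated 3 correlated at r = 0.996 across probe sets, against 0.956 to 0.988 in the 27 other pairs, so that nearly the same profile was counted once in each group. The library labelled treated 4 correlated at 0.985 to 0.988 with vehicle 1 to 3 and at 0.970 to 0.979 with treated 1 to 3. By the signal of the bacterial spike-in controls the arrays fell into 3 groups, called spike-in groups here (vehicle 1 with treated 1, vehicle 4 with treated 3, and the other 4 arrays). Differences without vehicle 4 and treated 3, or within a spike-in group, are given where they matter. The median over 15 hepatocyte markers was 13.53 to 13.76 on the 8 arrays, near the top of the scale, which fits the labelled tissue.

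Promoter sequence was matched for 39 of the 45 genes, in windows from 250 bases before to 50 after the annotated start (RefSeq, GRCr8). The other 6 genes were Gstm6l, Gstt1, Gstt2, Mgst2, Sult4a1 and Ugt2a1. The 5 windows below belong to members picked after their values were seen. They are the neighbouring pi class genes, which differed from each other from liver to liver, and the mu class genes with the highest and the lowest difference. The last is the glucuronosyltransferase whose signal dropped in 1 liver of each group. Capitals mark matches, on either strand, to the antioxidant response element TGACNNNGC, through which Nrf2 acts, and to the Ahr core GCGTG, which reads CACGC on the other strand.
Gstp1 (chr1:210769656-210769955, minus strand): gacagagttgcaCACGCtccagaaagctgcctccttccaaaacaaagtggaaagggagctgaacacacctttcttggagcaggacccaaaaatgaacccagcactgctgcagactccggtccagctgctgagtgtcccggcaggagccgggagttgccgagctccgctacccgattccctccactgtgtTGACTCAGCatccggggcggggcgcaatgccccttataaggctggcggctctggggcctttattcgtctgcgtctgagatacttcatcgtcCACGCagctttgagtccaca
Gstp3 (chr1:210787635-210787934, minus strand): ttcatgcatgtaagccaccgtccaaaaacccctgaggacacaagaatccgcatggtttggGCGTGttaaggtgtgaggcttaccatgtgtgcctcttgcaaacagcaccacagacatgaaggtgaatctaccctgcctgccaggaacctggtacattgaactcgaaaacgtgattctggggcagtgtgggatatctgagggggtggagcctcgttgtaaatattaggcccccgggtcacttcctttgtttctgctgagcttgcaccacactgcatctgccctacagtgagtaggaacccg
Gstm7 (chr2:198260270-198260569, minus strand): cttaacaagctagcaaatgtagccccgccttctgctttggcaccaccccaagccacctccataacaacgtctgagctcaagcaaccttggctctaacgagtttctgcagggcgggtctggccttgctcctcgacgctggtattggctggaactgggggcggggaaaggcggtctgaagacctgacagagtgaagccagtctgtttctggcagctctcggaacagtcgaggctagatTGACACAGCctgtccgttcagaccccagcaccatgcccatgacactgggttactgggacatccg
Gstm5 (chr2:198219519-198219818, plus strand): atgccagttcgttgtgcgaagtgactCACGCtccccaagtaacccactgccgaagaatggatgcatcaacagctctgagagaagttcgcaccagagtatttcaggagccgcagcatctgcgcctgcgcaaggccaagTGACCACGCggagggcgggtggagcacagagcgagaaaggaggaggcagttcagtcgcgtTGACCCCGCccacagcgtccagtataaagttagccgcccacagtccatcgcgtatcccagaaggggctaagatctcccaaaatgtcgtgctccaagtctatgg
Ugt2b (chr14:20985199-20985498, plus strand): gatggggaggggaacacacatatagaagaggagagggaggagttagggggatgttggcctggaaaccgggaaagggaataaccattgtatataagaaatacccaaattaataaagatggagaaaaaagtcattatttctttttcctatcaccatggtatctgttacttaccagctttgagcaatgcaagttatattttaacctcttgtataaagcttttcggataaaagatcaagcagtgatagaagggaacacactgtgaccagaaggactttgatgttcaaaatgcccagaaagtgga
The Gstp1 window held TGACTCAGC, first base at position -61 from the start, and the Gstp3 window held none. Gstm7 held TGACACAGC at -14, and Gstm5 held TGACCACGC and TGACCCCGC at -113 and -53, the first of them overlapping an Ahr core. The Ugt2b window held none of the motifs searched. The antioxidant response element was found in 6 of the 39 member windows (15.4%) and in 12.2% of all 27457 windows of that length, and the Ahr core in 8 (20.5%) and 31.1%. The growth hormone effector site TTCNNNGAA (STAT5) was found in 4 (10.3%) and 8.68%, and the HNF1 half-site GTTAAT in 5 (12.8%) and 7.37%. These are matches of letters, not measured binding sites.

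Most conjugation genes had a higher mean in treated livers, by small amounts, and none passed the test across the array. Of the 48 probe sets, 37 had a higher mean (77.1%), against 54.7% of all probe sets. At gene level 34 of 45 were higher (75.6%) with a median difference of 0.18, against 51.6% and 0.0061 over all 14217 genes. By limma with Benjamini-Hochberg adjustment over all probe sets, 0 members were called (smallest adjusted p = 0.979), as were 0 of 31042 probe sets (background 0%). At an unadjusted p under 0.05 there were 6 member probe sets (12.5%), all 6 higher in treated livers (Gsta4, Gstm2, Gstm4, Gstt2, Sult1c2 and Sult1c2a), against 3.93% of all probe sets in either direction, 1.89% higher and 2.04% lower. At least 2-fold differences were seen at 2 members (4.17%) and at 1.11% of all probe sets. The groups overlapped at every member (0 of 48 without overlap), against 1.67% of all probe sets without overlap.

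The median over the 45 genes was 0.26 without the near-identical arrays. There 11 member probe sets had an unadjusted p under 0.05 (limma), all higher, and 0 passed after adjustment. Over all 31042 probe sets the count at that p also rose, from 1220 to 2025. By spike-in group the median difference was 0.65 between treated 1 and vehicle 1, 0.13 in the group of 4 arrays and -0.010 between treated 3 and vehicle 4. Leaving out single arrays moved the median over the 45 genes between 0.11 (without vehicle 1) and 0.28 (without vehicle 2). The count of 6 member probe sets moved between 1 (without vehicle 3) and 11 (without vehicle 4). Over all probe sets the counts of these 2 runs were 626 and 2466. The mean over the 45 genes was 8.63, 9.13, 8.87 and 9.16 in vehicle rats 1 to 4 and 9.28, 9.28, 9.16 and 9.18 in treated rats 1 to 4. Vehicle 1 and 3 were the lowest, and vehicle 2 and 4 lay close to the treated arrays. By pathway, the median was 0.28 for 23 glutathione transferases (18 higher), 0.25 for 8 glucuronosyltransferases (7 higher) and 0.045 for 14 sulfotransferases (9 higher). Among probe sets with a mean above 6 the 3 medians were level, at 0.32, 0.31 and 0.32. The sulfotransferase median was -0.0056 without vehicle 1, and the glucuronosyltransferase median 0.097 without treated 2. A difference between the families was not tested.

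**Figure D1:**
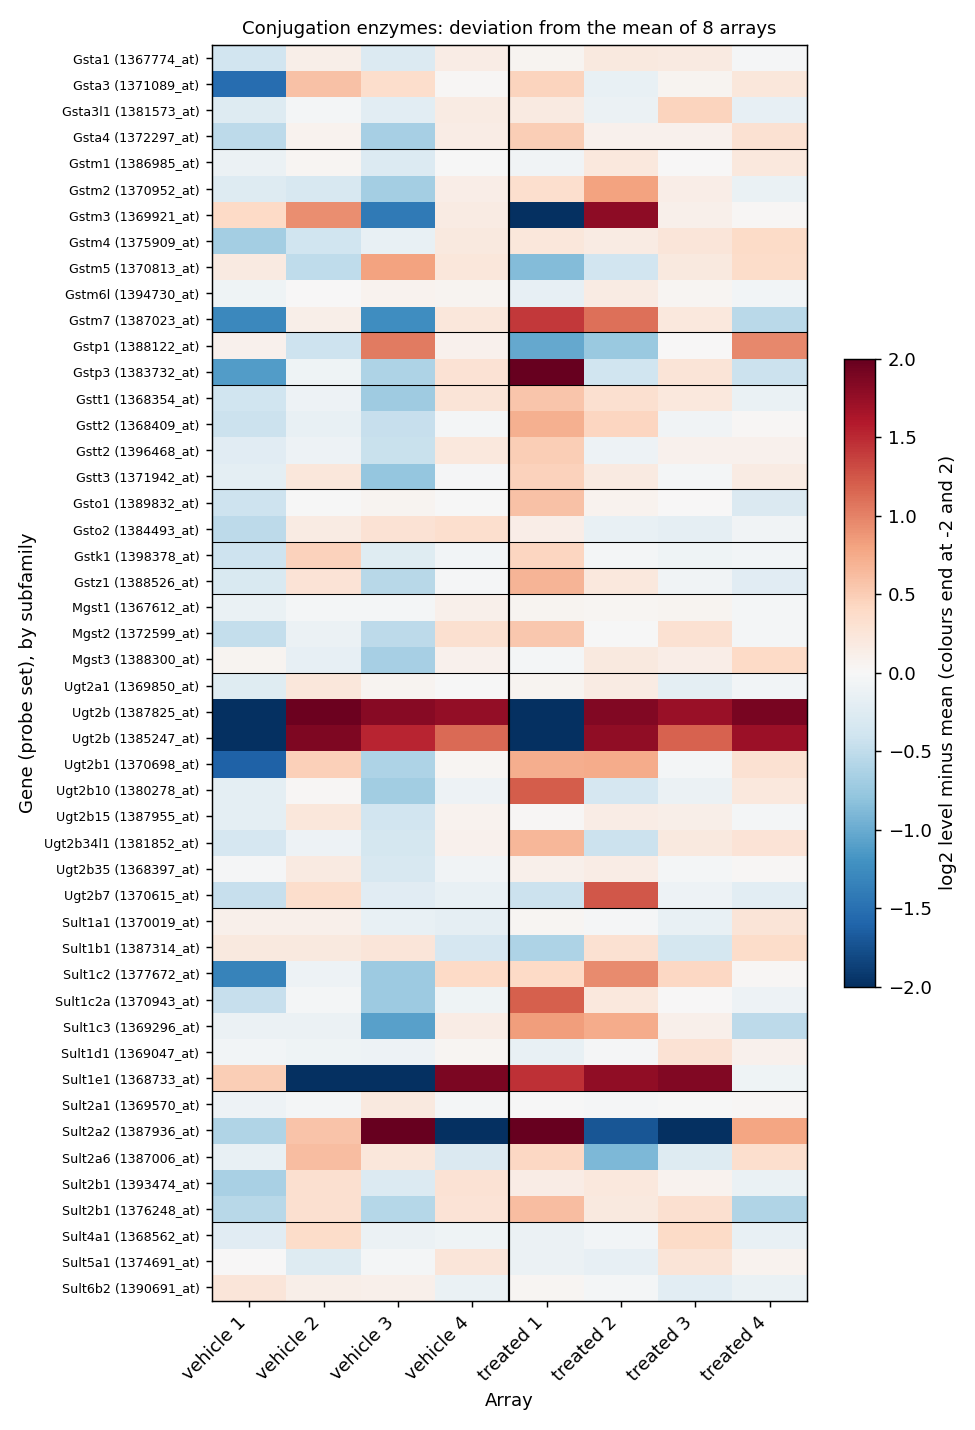
Deviation of each of the 48 probe sets (rows, by subfamily) from its own mean over the 8 arrays (columns; vehicle to the left of the line), in log2 units, with colours that end at -2 and 2. Vehicle 4 and treated 3 have nearly the same colours in most rows, and vehicle 1 and 3 are mostly blue. The strongest colours belong to Ugt2b, Sult1e1, Sult2a2, Gstm3 and Gstp3.

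The alpha class, hepatocyte enzymes that act on lipid peroxides and steroids, had 4 of 4 genes with a higher mean in treated livers and a median difference of 0.24. Gsta4 (1372297_at), which conjugates the lipid peroxidation product 4-hydroxynonenal, read 10.97, 11.55, 10.83 and 11.64 in vehicle rats 1 to 4 and 11.98, 11.57, 11.57 and 11.80 in treated rats 1 to 4. Vehicle 1 and 3 were the lowest, while vehicle 2 came close to the treated arrays and vehicle 4 stood among them. Its mean was 11.25 ± 0.41 in the vehicle group against 11.73 ± 0.20 in the treated group, a 1.39-fold higher level (difference 0.48, SE 0.20, interval 0.019 to 0.94), and the difference was 0.66 without the near-identical arrays. Gsta1 (1367774_at), a major subunit of the liver, read 12.36, 12.86, 12.47 and 12.90 in vehicle rats 1 to 4 and 12.79, 12.95, 12.92 and 12.73 in treated rats 1 to 4. It lay within 0.59 on all arrays, with a difference of 0.20 (-0.13 to 0.53). Gsta3 (1371089_at), another alpha class subunit, averaged 9.39 ± 0.95 in the vehicle group against 9.67 ± 0.25 in the treated group. Its low point was vehicle 1 at 8.004, against 9.38 to 10.12 on the 7 other arrays. Gsta3l1 (1381573_at) lay at 2.90 to 3.61, at or below the 25th percentile of the arrays (3.74 to 3.91), taken here as close to background.

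The mu class was the most varied of the glutathione transferases, with 4 of 7 genes higher and a median difference of 0.17. Gstm4 (1375909_at) read 9.29, 9.57, 9.82 and 10.16 in vehicle rats 1 to 4 and 10.19, 10.13, 10.22 and 10.36 in treated rats 1 to 4. All 4 treated arrays were above vehicle 1 to 3, and only vehicle 4 reached them (difference 0.51, SE 0.18, interval 0.11 to 0.91). Gstm2 (1370952_at) read 11.20, 11.12, 10.77 and 11.58 in vehicle rats 1 to 4 and 11.79, 12.25, 11.58 and 11.31 in treated rats 1 to 4. Treated 1 and 2 stood above every vehicle array and treated 4 below vehicle 4 (difference 0.57, SE 0.23, interval 0.051 to 1.08). Without the near-identical arrays the difference was 0.66 for Gstm4 and 0.75 for Gstm2.

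Gstm7 (1387023_at) had the largest mean difference among the glutathione transferases. It read 6.99, 8.40, 7.05 and 8.52 in vehicle rats 1 to 4 and 9.70, 9.38, 8.499 and 7.75 in treated rats 1 to 4. Treated 1 and 2 were the highest, treated 4 lay below vehicle 2 and 4, and the mean was 2.13-fold higher with an interval that included 0 (difference 1.09, -0.047 to 2.23). Within spike-in groups it was 2.70 between treated 1 and vehicle 1 and 0.84 in the group of 4 arrays. Gstm1 (1386985_at), the major hepatic mu subunit, read 13.20, 13.35, 13.04 and 13.30 in vehicle rats 1 to 4 and 13.23, 13.53, 13.31 and 13.51 in treated rats 1 to 4, within a range of 0.49 and with a difference of 0.17 (-0.094 to 0.44).

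Gstm3 (1369921_at) spread over 3.81 log2 units, the range ranked 179 among the 31042 probe sets, while the group means were close (difference -0.043, -1.77 to 1.68). It read 8.65, 9.18, 6.84 and 8.42 in vehicle rats 1 to 4 and 6.23, 10.05, 8.36 and 8.28 in treated rats 1 to 4. The lowest and the highest value were both in treated livers, treated 1 and 2. Gstm5 (1370813_at) had the lowest difference of the class, -0.35 (-1.09 to 0.40), and read 6.73, 6.03, 7.35 and 6.76 in vehicle rats 1 to 4 and 5.68, 6.16, 6.74 and 6.91 in treated rats 1 to 4. Treated 1 was its lowest array and vehicle 3 its highest. Gstm6l (1394730_at) lay at 3.89 to 4.21, near the 25th percentile of the arrays.

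**Figure D2:**
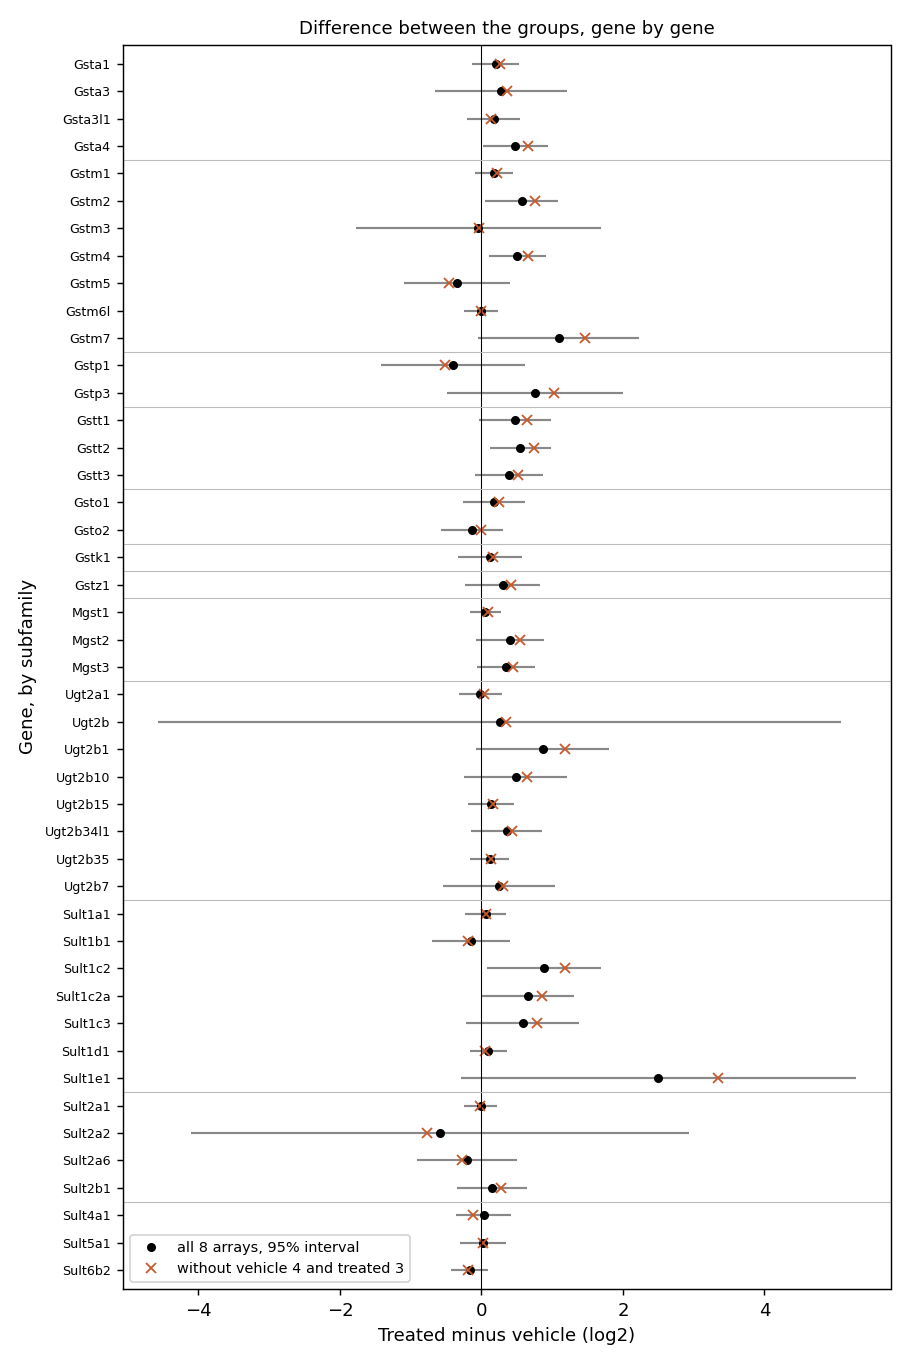
Difference treated minus vehicle (log2) for each of the 45 genes, 1 probe set per gene, by subfamily. Black points with 95% intervals use all 8 arrays (limma), and orange crosses leave out vehicle 4 and treated 3. Only 6 intervals lie wholly above 0 and none wholly below, and the widest belong to Ugt2b, Sult2a2 and Sult1e1.

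The theta class, which handles small halogenated and sulfate-bearing molecules, had 3 of 3 genes higher and a median difference of 0.48. Gstt2 (1368409_at) read 8.41, 8.69, 8.38 and 8.80 in vehicle rats 1 to 4 and 9.55, 9.27, 8.78 and 8.87 in treated rats 1 to 4. Treated 1, 2 and 4 were above every vehicle array, treated 4 by little, and treated 3 lay at the level of vehicle 4 (difference 0.55, SE 0.19, interval 0.12 to 0.98). Its second probe set (1396468_at) differed by 0.28 in the same direction. Gstt3 (1371942_at) read 11.74, 12.15, 11.15 and 11.91 in vehicle rats 1 to 4 and 12.39, 12.12, 11.89 and 12.10 in treated rats 1 to 4. Vehicle 1 and 3 lay below the treated range, and the difference was 0.39 (-0.089 to 0.86). Gstt1 (1368354_at) averaged 9.11 ± 0.41 in the vehicle group against 9.59 ± 0.29 in the treated group (difference 0.48, -0.028 to 0.98). Without the near-identical arrays, Gstt1, Gstt2 and Gstt3 differed by 0.65, 0.74 and 0.52.

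The pi class genes Gstp1 and Gstp3, next to each other in RefSeq, differed in opposite directions. Gstp1 (1388122_at), the placental form known as a marker of altered hepatocyte foci in the rat and also present in bile ducts, read 9.48, 8.99, 10.44 and 9.495 in vehicle rats 1 to 4 and 8.38, 8.66, 9.42 and 10.36 in treated rats 1 to 4. Vehicle 3 and treated 4 were high and treated 1 and 2 low, so that the difference of -0.40 (-1.41 to 0.61) was smaller than the spread within either group. Gstp3 (1383732_at) read 8.30, 9.34, 8.81 and 9.70 in vehicle rats 1 to 4 and 11.51, 9.02, 9.68 and 8.99 in treated rats 1 to 4. Treated 1 was the highest array of Gstp3 and the lowest of Gstp1, and without it the 3 other treated arrays of Gstp3 lay within the vehicle range (difference 0.76, -0.48 to 2.01). The list of genes known from altered foci, which includes Gstp1, had 2 of 8 measured genes higher and 6 lower, with a median difference of -0.25. Of these, Cd44 (1368921_a_at), a hyaluronan receptor, differed by -0.97 and Ggt1 (1368374_a_at), which cleaves extracellular glutathione, by -0.77. Bile duct markers had 2 of 9 measured genes higher and 7 lower, with a median difference of -0.29, and their mean was 6.66, 6.22, 6.45 and 5.88 in vehicle rats 1 to 4 and 5.64, 5.62, 5.99 and 6.84 in treated rats 1 to 4. Vehicle 1 and treated 4 had the highest duct mean and treated 1 and 2 the lowest. The part of duct content in the Gstp1 values was not tested.

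Omega, kappa and zeta class enzymes had small differences with intervals across 0. Gsto1 (1389832_at), which reduces dehydroascorbate, read 10.37, 10.77, 10.83 and 10.78 in vehicle rats 1 to 4 and 11.37, 10.85, 10.79 and 10.49 in treated rats 1 to 4, with treated 1 highest and vehicle 1 lowest (difference 0.18, -0.25 to 0.62). Gsto2 (1384493_at) was dim, at 4.97 to 5.83, and differed by -0.13 (-0.57 to 0.30). Gstk1 (1398378_at), an enzyme of mitochondria and peroxisomes, read 11.23, 12.10, 11.41 and 11.59 in vehicle rats 1 to 4 and 12.07, 11.60, 11.56 and 11.58 in treated rats 1 to 4. Vehicle 2 and treated 1 were high, and the difference was 0.12 (-0.34 to 0.58). Gstz1 (1388526_at), which isomerises maleylacetoacetate in tyrosine breakdown, read 11.05, 11.63, 10.80 and 11.33 in vehicle rats 1 to 4 and 12.03, 11.56, 11.28 and 11.13 in treated rats 1 to 4. Its difference was 0.30 (-0.23 to 0.83), with treated 1 highest and vehicle 3 lowest.

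The membrane-bound transferases had 3 of 3 genes higher and a median difference of 0.34. Mgst1 (1367612_at), the abundant enzyme of the endoplasmic reticulum and outer mitochondrial membrane, read 13.75, 13.86, 13.85 and 13.9996 in vehicle rats 1 to 4 and 13.95, 13.93, 13.96 and 13.85 in treated rats 1 to 4. Its range of 0.245 was the narrowest of all 48 members and ranked 30237 of 31042 from the widest, with a difference of 0.054 (-0.17 to 0.27). Mgst2 (1372599_at), which can make leukotriene C4, read 10.46, 10.82, 10.42 and 11.25 in vehicle rats 1 to 4 and 11.48, 10.94, 11.24 and 10.91 in treated rats 1 to 4. Vehicle 1 and 3 were the lowest, and the difference was 0.41 (-0.074 to 0.88), or 0.54 without the near-identical arrays. Mgst3 (1388300_at) differed by 0.34 (-0.069 to 0.75), with vehicle 3 lowest at 9.69 and treated 4 highest at 10.75.

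Among the glucuronosyltransferases, the 8 genes with a probe set of their own were all of family 2, and 7 of 8 had a higher mean in treated livers with a median difference of 0.25. Ugt2b1 (1370698_at), a broad-specificity enzyme inducible by phenobarbital, had the largest. It read 10.75, 12.86, 11.75 and 12.41 in vehicle rats 1 to 4 and 13.11, 13.12, 12.33 and 12.67 in treated rats 1 to 4. Vehicle 1 and 3 were low, vehicle 2 stood above treated 3 and 4, and the mean was 1.82-fold higher with an interval that included 0 (difference 0.86, -0.072 to 1.80). The difference was 1.18 without the near-identical arrays. Ugt2b35 (1368397_at) read 12.91, 13.11, 12.61 and 12.85 in vehicle rats 1 to 4 and 13.03, 13.07, 12.89 and 12.95 in treated rats 1 to 4 and differed by 0.12 (-0.17 to 0.40). Ugt2b10, Ugt2b15 and Ugt2b34l1 had differences of 0.48, 0.13 and 0.36, each with an interval across 0. Ugt2a1, an enzyme known from olfactory tissue, and Ugt2b7 were dim, at 4.58 to 5.05 and 4.37 to 6.06. The median of 0.25 lay between the differences of the dim Ugt2b7 (0.24) and of Ugt2b (0.26), which is described next.

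Ugt2b, listed by RefSeq also as Ugt2b2, was far lower in 1 liver of each group than in the 6 others. This enzyme glucuronidates androsterone, and an inherited lack of it is known in some Wistar rats. Its brighter probe set (1387825_at) read 4.91, 12.94, 12.80 and 12.73 in vehicle rats 1 to 4 and 5.998, 12.82, 12.71 and 12.88 in treated rats 1 to 4. Vehicle 1 and treated 1 were at least 6.71 log2 units below the 6 other arrays, which lay between 12.71 and 12.94. The second probe set (1385247_at) read 3.23, 9.74, 9.40 and 9.001 in vehicle rats 1 to 4 and 3.31, 9.64, 9.06 and 9.59 in treated rats 1 to 4, with the same 2 arrays at least 5.69 below the rest and below the 25th percentile, which the brighter probe set was not. The range of 8.03 was the third widest of the 31042 probe sets. The differences between group means were 0.26 (-4.57 to 5.08) and 0.055 (-3.97 to 4.08). Of all probe sets, 2 were at least 3 log2 units lower on both vehicle 1 and treated 1 than on every other array, namely these 2, and 0 were that much higher, a count made after the values were seen. Ugt2b15, its nearest protein-coding Ugt2b neighbour in RefSeq, read 11.67 and 11.89 on vehicle 1 and treated 1, against 11.48 to 12.09 on the others, and had no such drop. Ugt2b7 (1370615_at) had its lowest values on the same 2 arrays, 4.37 and 4.39, against 4.60 to 6.06 on the others. Vehicle 1 and treated 1 are also a spike-in group of their own. The sources used here give no genotypes, and none was tested.

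**Figure D3:**
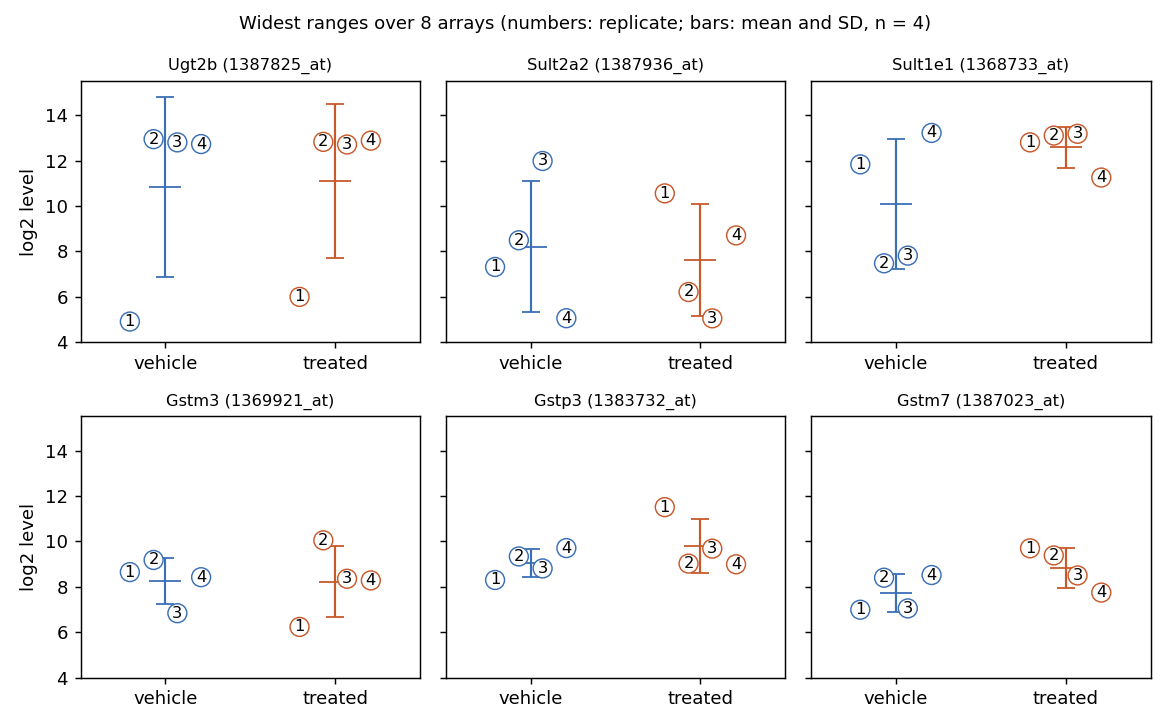
Level (log2) of the 6 genes with the widest range over the 8 arrays, by group, 1 probe set per gene; each circle is 1 array with its replicate number, and the bars are the mean and SD (n = 4). Ugt2b drops on replicate 1 of both groups, Sult1e1 on vehicle 2 and 3, and the groups overlap for all 6 genes.

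Family 1 glucuronosyltransferases share most of their transcript, and the 2 probe sets that list 8 of their symbols each fall outside the selection. Probe set 1370613_s_at read 12.55, 12.65, 12.77 and 12.74 in vehicle rats 1 to 4 and 13.02, 13.11, 12.75 and 13.06 in treated rats 1 to 4, and 1387759_s_at read 10.65, 10.60, 10.49 and 10.78 in vehicle rats 1 to 4 and 11.32, 11.05, 10.74 and 11.12 in treated rats 1 to 4. Treated 1, 2 and 4 stood above every vehicle array in both, and treated 3 did not. Their differences were 0.31 and 0.43 (limma adjusted p = 0.979 for both). Probe set 1368180_s_at, which lists 2 alpha class symbols, differed by 0.66, and 1369531_at, which lists a Sult1 symbol beside another, by 0.59. Closely related genes can also hybridize to each other's probes, which was not tested for any member.

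The sulfotransferases of family 1 had 6 of 7 genes higher, with a median difference of 0.58, the largest of any subfamily with all arrays. Without vehicle 3 it was 0.315, against 0.318 for the theta class. Sult1e1 (1368733_at), the estrogen sulfotransferase that male rat liver makes in excess of female liver, had the widest gap between group means of all members. It read 11.83, 7.48, 7.81 and 13.22 in vehicle rats 1 to 4 and 12.80, 13.10, 13.18 and 11.25 in treated rats 1 to 4. Vehicle 2 and 3 lay far below every other array, while vehicle 4 was the highest of all 8. The group means were 10.08 ± 2.88 in the vehicle group against 12.58 ± 0.90 in the treated group (difference 2.50, SE 1.23, interval -0.30 to 5.29, limma adjusted p = 0.979). The difference was 4.53 within the group of 4 arrays and 0.97 between treated 1 and vehicle 1.

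Sult1c2 (1377672_at) read 5.54, 6.78, 6.15 and 7.28 in vehicle rats 1 to 4 and 7.28, 7.82, 7.29 and 6.90 in treated rats 1 to 4. Vehicle 1 to 3 were below all treated arrays, and vehicle 4 was within them (difference 0.88, SE 0.36, interval 0.077 to 1.69). Sult1c2a (1370943_at), a close relative, read 9.35, 9.76, 9.07 and 9.71 in vehicle rats 1 to 4 and 10.998, 10.02, 9.81 and 9.71 in treated rats 1 to 4. Treated 1 stood alone at the top and treated 4 lay below vehicle 2 (difference 0.66, SE 0.29, interval 0.0085 to 1.32). Sult1c3 (1369296_at) averaged 11.78 ± 0.55 in the vehicle group against 12.36 ± 0.63 in the treated group with vehicle 3 lowest at 10.98 (difference 0.58, -0.22 to 1.38). Without the near-identical arrays these 3 differed by 1.17, 0.85 and 0.79.

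Both other well expressed family 1 enzymes had differences near 0. Sult1a1 (1370019_at), the main phenol sulfotransferase, read 12.84, 12.84, 12.58 and 12.55 in vehicle rats 1 to 4 and 12.77, 12.70, 12.59 and 12.98 in treated rats 1 to 4, a difference of 0.061 (-0.23 to 0.35). Sult1b1 (1387314_at), which sulfates thyroid hormone, differed by -0.15 (-0.70 to 0.40), with treated 1, treated 3 and vehicle 4 at 12.07, 12.35 and 12.36 and the other 5 arrays at 12.88 to 13.06. Sult1d1 (1369047_at) lay at 2.67 to 3.10, at or below the 25th percentile.

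Family 2, whose Sult2a enzymes sulfate hydroxysteroids and bile acids and are known to be higher in female rat liver, had 1 of 4 genes higher and a median difference of -0.10, or 0.072 without treated 3. Sult2a2 (1387936_at) spread over 6.93 log2 units, the sixth widest range on the array. It read 7.31, 8.49, 11.98 and 5.06 in vehicle rats 1 to 4 and 10.55, 6.21, 5.05 and 8.70 in treated rats 1 to 4. Vehicle 3 and treated 1 were high and the near-identical vehicle 4 and treated 3 lowest, so that the group difference of -0.58 had an interval of -4.10 to 2.94. Sult2a6 (1387006_at) read 11.92, 12.68, 12.28 and 11.77 in vehicle rats 1 to 4 and 12.48, 11.16, 11.81 and 12.40 in treated rats 1 to 4 (difference -0.20, -0.91 to 0.51). Treated 2 was its lowest array. Sult2b1, a cholesterol sulfotransferase, was dim on both probe sets (1393474_at at 4.54 to 5.51, 1376248_at at 4.18 to 5.41), which differed by 0.15 and 0.27. Sult2a1 (1369570_at) lay at 2.70 to 3.003, at or below the 25th percentile. Of the other sulfotransferases, Sult5a1 (1374691_at) read 5.79, 5.52, 5.73 and 6.02 in vehicle rats 1 to 4 and 5.65, 5.61, 6.03 and 5.84 in treated rats 1 to 4 and Sult6b2 (1390691_at) 4.16, 4.04, 4.02 and 3.79 in vehicle rats 1 to 4 and 3.95, 3.89, 3.72 and 3.80 in treated rats 1 to 4. They differed by 0.022 and -0.17, and Sult4a1, known from brain, by 0.030 at a level of 3.94 to 4.54.

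Genes known to be higher in male rat liver lay along the same arrays as Sult1e1 in part. They had 8 of 8 measured genes higher and 0 lower, with a median difference of 1.08 and 0 with an unadjusted p under 0.05, and their mean was 9.64, 9.57, 8.54 and 11.59 in vehicle rats 1 to 4 and 11.75, 12.21, 11.59 and 9.57 in treated rats 1 to 4. Vehicle 1 to 3 and treated 4 were low, and vehicle 4 and treated 1 to 3 high. Obp3 (1370479_x_at), a lipocalin of male liver, read 3.55, 3.69, 3.28 and 6.96 in vehicle rats 1 to 4 and 7.88, 9.63, 7.23 and 3.72 in treated rats 1 to 4, and Cyp3a2 (1370593_at), a male-predominant cytochrome, 12.53, 12.13, 10.02 and 13.38 in vehicle rats 1 to 4 and 13.44, 13.85, 13.35 and 12.92 in treated rats 1 to 4. Sult1e1 differed from this order on vehicle 1 and treated 4, where it was 11.83 and 11.25. Genes known to be higher in females had 5 of 8 measured genes higher and 3 lower, with a median difference of 0.18. Stac3 (1395403_at), an adaptor protein, differed by 1.87 and the female-predominant cytochrome Cyp2c12 (1368155_at) by -1.96.

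Genes that supply the conjugated groups had median differences of 0.065 to 0.13. Over all 14217 genes, 277 were higher and 398 lower at an unadjusted p under 0.05 (limma). Glutathione synthesis, recycling and breakdown had 11 of 17 measured genes higher and 6 lower, with a median difference of 0.065, with 0 higher and 2 lower at an unadjusted p under 0.05. Those 2 were Chac1 (1389573_at), which degrades glutathione, at 11.31, 10.89, 10.51 and 8.99 in vehicle rats 1 to 4 and 5.67, 9.56, 8.97 and 8.33 in treated rats 1 to 4, and Ggt1 at 6.14, 7.001, 7.03 and 5.79 in vehicle rats 1 to 4 and 5.52, 5.39, 5.89 and 6.10 in treated rats 1 to 4. All 4 treated arrays of Chac1 lay below vehicle 1 to 3, at a difference of -2.29, and the rate-limiting synthesis genes Gclc and Gclm differed by 0.50 and 0.67 with intervals across 0. Glucuronate supply had 3 of 6 measured genes higher and 3 lower, with a median difference of 0.13, with 1 higher and 1 lower at that p. Ugdh (1367938_at), which makes UDP-glucuronic acid, read 10.54, 11.02, 10.51 and 11.01 in vehicle rats 1 to 4 and 11.39, 11.54, 11.06 and 10.86 in treated rats 1 to 4, and the hexokinase Hk1 (1386929_at) differed by -0.48. Treated 1 and 2 were the highest arrays of Ugdh.

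Sulfate activation, transport and release had 8 of 12 measured genes higher and 4 lower, with a median difference of 0.12, with 0 higher and 1 lower at that p. The synthases of the sulfate donor went apart: Papss1 (1371850_at) differed by -0.61 and Papss2 (1376047_at), the form of hepatocytes, by 0.26. Transporters that export conjugates had 6 of 8 measured genes higher and 2 lower, with a median difference of 0.24 and 0 in either direction at that p. Abcc3 (1369698_at), which returns conjugates to the blood, differed by 0.91 and Abcc5 (1387030_at) by -0.44.

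Transcription factors that control conjugation genes were listed with their partners, which include the Nrf2 adaptor Keap1 and the oxidoreductase Por. Of these, 12 of 17 measured genes were higher and 5 lower, with a median difference of 0.15. At an unadjusted p under 0.05, 3 were higher and 0 lower, against 277 and 398 of all 14217 genes. Ahr (1369146_a_at), the aryl hydrocarbon receptor, read 6.35, 5.75, 6.56 and 6.78 in vehicle rats 1 to 4 and 6.84, 7.11, 6.88 and 7.51 in treated rats 1 to 4, with every treated array above every vehicle array. Rxra (1369101_at), the partner of the xenobiotic receptors, differed by 0.53. The third was Nr1i3 (1368797_at), the constitutive androstane receptor through which phenobarbital acts, at 4.39, 6.17, 4.30 and 5.30 in vehicle rats 1 to 4 and 6.85, 6.24, 5.29 and 6.39 in treated rats 1 to 4. Vehicle 1 and 3 were its lowest arrays, and also the lowest of Rxra (6.31 and 6.17) and of the conjugation mean. Whether any of these factors had a part in the conjugation levels was not tested. Nfe2l2, which encodes Nrf2, differed by 0.14 and Nr1i2, the pregnane X receptor, by -0.32. Other inducible genes had 11 of 13 measured genes higher and 2 lower, with a median difference of 0.20, with 1 higher at that p. Nqo1 (1387599_a_at), a quinone reductase controlled by Nrf2, read 9.501, 10.79, 9.999 and 10.93 in vehicle rats 1 to 4 and 11.56, 11.23, 10.83 and 10.79 in treated rats 1 to 4, and Aldh1a1 (1387022_at) differed by 0.52. Of these supply, export, regulator and target genes, 0 passed after adjustment (limma, smallest adjusted p = 0.979).

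Hepatocyte markers had a median difference near 0, while most markers of other liver cells had lower means in treated livers, none past adjustment (limma). In bulk tissue, fewer cells of a type and less RNA per cell cannot be told apart. Hepatocyte markers had 6 of 15 measured genes higher and 9 lower, with a median difference of -0.031; Apoa1 differed by -0.64 and Hpd by 0.21. Relative to the median of these markers on the same array, the median difference of the 45 conjugation genes was 0.21. Pericentral genes had 7 of 9 measured genes higher and 2 lower, with a median difference of 0.13 (Tbx3 1.63, Slc1a2 0.90), or -0.0056 without treated 1 and 0.27 without treated 2. Tbx3 and Slc1a2 were dim, with vehicle means of 4.82 and 4.03. The 2 lower genes were Glul (-0.45) and Cyp7a1 (-0.22). Periportal genes had 2 of 10 measured genes higher and 8 lower, with a median difference of -0.12 (Sds -0.999, Gls2 -0.26).

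Endothelial markers were higher at 0 of 11, with a median of -0.78 and 7 lower at an unadjusted p under 0.05 (Nos3 -0.68, Fcgr2b -0.82). Over all 14217 genes, 51.6% had a higher mean and 398 were lower at that p. The endothelial mean was 7.96, 7.88, 7.91 and 6.99 in vehicle rats 1 to 4 and 6.83, 6.92, 6.90 and 6.82 in treated rats 1 to 4. Vehicle 4 thus lay near the treated arrays, and without the near-identical arrays the median was -1.07. Stellate cell and matrix markers were higher at 1 of 12, with a median of -0.74 (Acta2 -0.67, Tagln -1.08). Leukocyte markers were higher at 2 of 11, with a median of -0.29 (Cd3e -0.69, Cd4 -0.77). The higher genes were Lrat (0.26) among the stellate markers, and Cd8a (0.35) and the dim Ms4a1 (0.11) among the leukocyte markers. Mast cell markers were higher at 0 of 7, with a median of -0.74 and 5 lower at that p (Cma1 -1.35, Mcpt1 -2.86). Their mean was 5.96, 5.39, 5.58 and 3.95 in vehicle rats 1 to 4 and 3.80, 3.88, 4.04 and 3.79 in treated rats 1 to 4. Without the near-identical arrays their median was -1.11. Cell cycle markers were higher at 0 of 10, with a median of -0.86 (Mki67 -1.77, Ccnb1 -1.70). In the bile duct list, Aqp1 differed by -1.05 and Cftr by -0.60. Markers of intestine, pancreas and kidney went both ways, with 4 of 9 higher and a median of -0.0088. Prss1 (0.22) and Cpa1 (0.18) were close to background, at 3.07 to 3.76. The widest marker of this list, Akr1b7, also on the female-biased list, differed by -1.21 with arrays from 4.12 to 10.57. Among probe sets with a mean above 6 the list median was -0.87. The cell cycle mean was 8.41, 7.28, 7.56 and 6.78 in vehicle rats 1 to 4 and 5.57, 5.61, 6.79 and 7.97 in treated rats 1 to 4, highest on vehicle 1 and treated 4. What part cell content had in the conjugation levels was not tested.

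**Figure D4:**
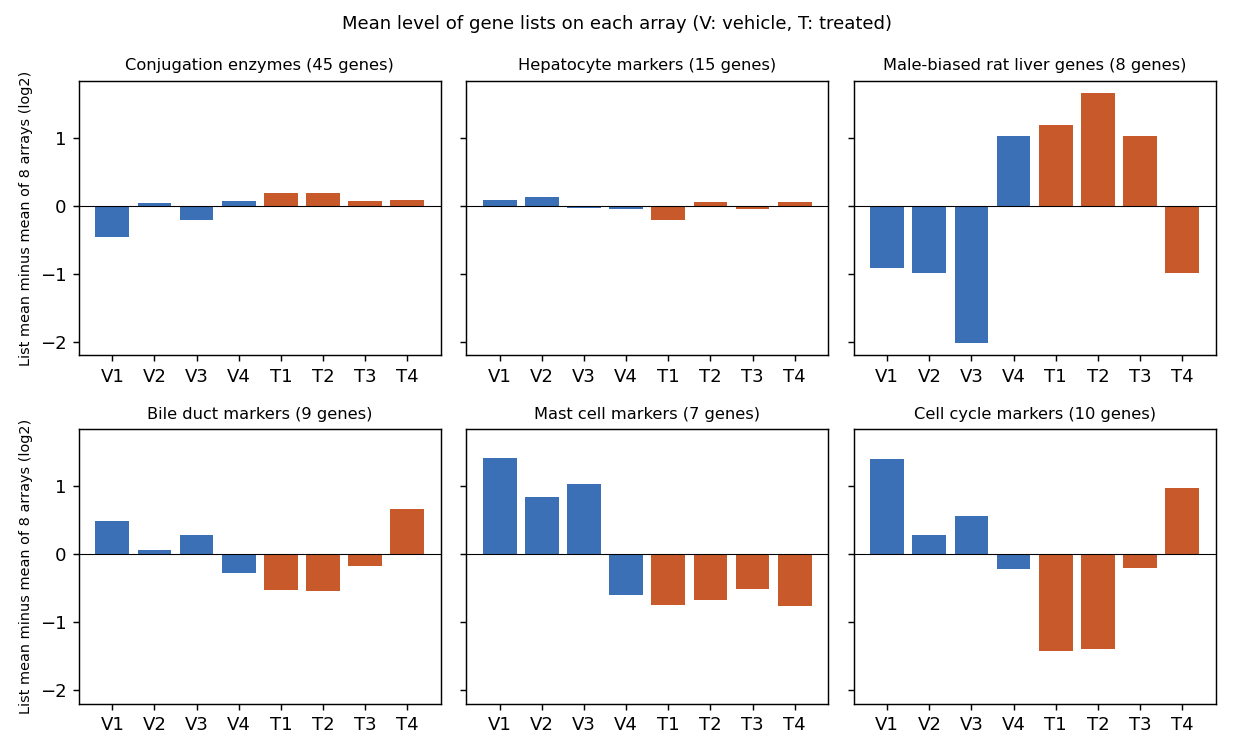
Mean log2 level of 6 gene lists on each array, minus the mean over the 8 arrays (V1 to V4 vehicle in blue, T1 to T4 treated in orange). The conjugation enzymes are lowest on vehicle 1 and 3, the hepatocyte markers vary little, and vehicle 4 and treated 4 each lie with the other group for the male-biased genes.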

How the data were processed

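The data were log2 intensities of 8 Affymetrix Rat2302 arrays, 1 liver each, deposited by the authors after robust multi-array average (RMA) with the affy package, per the submitters' processing notes, which give no version here. Per the labels' protocols, RNA was isolated with Trizol and RNeasy columns, and biotinylated cRNA was made from a T7-(dT)24 primer, which favours the 3′ end of transcripts. RMA scales arrays to one distribution, so changes of total RNA do not show. The number of arrays limits the precision, and signal is read from brightness, not reads.

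Values were used as deposited. Probe sets were named from the platform annotation where it gave 1 symbol, and 57 control probe sets were left out. limma 3.58.1 in R 4.3.3 (lmFit and eBayes, no covariates, Benjamini-Hochberg adjustment over 31042 probe sets, threshold 0.05) compared the groups, and the code was tested on simulated data. A gene with several probe sets was represented by the one with the highest mean, and list values are over genes.

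The members and the 19 lists were chosen with earlier results of these data known. In each subfamily the gene with the highest mean and that with the largest difference were named, with every member at an unadjusted p under 0.05, every gene without overlap between groups, and genes whose probe sets disagreed in sign by more than 0.3. In each other list the 2 genes with the smallest p were named. Members described beside these, and Akr1b7, Cd8a, Cyp7a1, Gclc, Gclm, Glul, Lrat, Ms4a1, Nfe2l2, Nr1i2 and Nr1i3, were picked after their values were seen. Spike-in groups rest on the signals of BioB and BioC (BioC above BioB by more than 1, otherwise BioB above 8.5 or not). Alternatives were other scalings, filters, weights and blocks, and leaving out arrays.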

Additional observations from a re-analysis of the deposited data

Results flagged for a closer look

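In 8 of 96 groups of 4 arrays tested, 1 array lay apart from the 3 others by Dixon's test, which chance does in about 1 group in 20. Ugt2b accounted for 4 of them. Its probe set 1387825_at read 4.91 on vehicle 1, where the nearest vehicle array read 12.73, and 5.998 on treated 1, where the nearest treated array read 12.71. Its other probe set, 1385247_at, read 3.23 on vehicle 1 (nearest 9.001) and 3.31 on treated 1 (nearest 9.06).

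Gstk1 read 12.07 on treated 1, with the nearest treated array at 11.60. Gsto1 read 10.37 on vehicle 1, with the nearest vehicle array at 10.77. Sult1b1 read 12.36 on vehicle 4, with the nearest vehicle array at 12.88. Sult2a1 read 2.83 on treated 4, with the nearest treated array at 2.79, all of them below the 25th percentile of the arrays.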

How the results depend on the processing

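The count of member probe sets past the adjusted threshold was 0 under every alternative run. Over all probe sets it was 3 without vehicle 4 and treated 3, and 0 to 11 when single arrays were left out (11 without vehicle 4), all lower in treated livers. At an unadjusted p under 0.05 the members counted 6 as reported, 3 after quantile normalization, 6 after median centring (which shifted all differences by 0.054), 8 with array weights, 4 with the spike-in group as a block, and 11 without vehicle 4 and treated 3. Over all probe sets the counts were, in the same order, 1220, 1255, 1361, 2047, 1395 and 2025. The replicate numbers were not taken as pairs: same-numbered arrays deviated from their group means with correlations of -0.62 to 0.041. Those means include the near-identical arrays, so this check cannot settle whether the numbers mark pairs. With the replicate number as a block, 785 probe sets and 3 members had an unadjusted p under 0.05, and 0 passed after adjustment.

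The median difference of the member genes was 0.32 among probe sets with a mean above 6, 0.21 relative to hepatocyte markers and 0.11 to 0.28 when single arrays were left out. Of 24 members named by rule, 19 kept their sign under every alternative run. The other 5 changed sign when an array was left out, with ranges of -0.0012 to 0.29 for Gstk1, -0.061 to 0.11 for Sult5a1, -0.013 to 0.12 for Sult1a1, -1.63 to 0.68 for Sult2a2 and -0.37 to 0.068 for Sult2a6. With 4 arrays a group, near-identical arrays across the groups and 3 members at or below the 25th percentile, small differences could not be told from the spread between arrays.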

Other observations

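The male-biased and female-biased lists allow one further description of the sulfotransferases. On vehicle 3 the male-biased mean was lowest (8.54) and Sult2a2, a sulfotransferase of female liver, highest (11.98). On treated 1 the male-biased mean was 11.75 and Sult2a2 was nonetheless at 10.55, its second highest value. Sult1e1 and Sult2a2 were both high on treated 1 (12.80 and 10.55), and on vehicle 2 they read 7.48 and 8.49. These values were looked at after the data were seen and were not tested.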
